A study of Caenorhabditis elegans with 6 samples.

Results

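The core glycolytic enzymes are the proteins that carry phosphorylated glucose step by step to pyruvate, and 10 of their genes were followed here: gpi-1, pfk-1.1, aldo-1, aldo-2, tpi-1, pgk-1, ipgm-1, enol-1, pyk-1 and pyk-2. Members were chosen by name, as the probe sets whose annotation gives one of these symbols and no other gene. This found 12 probe sets for 9 of the 10 genes, among 17118 genes named in the same way, and enol-1, which encodes enolase, was not analysed here. The study compared RNA of whole Caenorhabditis elegans on 6 Affymetrix arrays, in 3 replicates of N2, the wild type, and 3 of hlh-30(tm1978) worms, which carry the allele tm1978 of that gene. Both strains were grown at 20 °C on plates with no further treatment, and each replicate pooled RNA from embryos, L1s and L2s. A value is therefore an average over these stages and all tissues, in which fewer cells of a type and less RNA per cell cannot be told apart. The labels do not say whether the mutant was outcrossed.

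Glycolysis splits a sugar of 6 carbons into a pair of triose phosphates and draws ATP from them on the way to pyruvate. Its early steps spend ATP, and its late steps, from phosphoglycerate kinase to pyruvate kinase, return it. In worms the pathway is used in all tissues and is drawn on heavily by muscle, and most of its steps also run backwards in gluconeogenesis, which lets embryos and larvae make sugar from stored fat. HLH-30 is the worm counterpart of mammalian TFEB, a transcription factor known for its control of autophagy, lysosomal and fat metabolism genes.

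The hlh-30 transcript read lower on each mutant array than on every wild-type array at its 3 probe sets, by 1.40, 1.31 and 1.40 at the closest on the log2 scale, though limma called none of them with all arrays (adjusted p from 0.121 to 0.26). Without wild type 3 and mutant 3 the brightest, 174862_at, was called lower, at −1.47 (limma adjusted p 0.042). The others, 190299_at and 194161_s_at, were not called in that fit, at −1.73 and −1.59 (limma adjusted p 0.0967 and 0.051). Where the allele alters the gene, relative to these probe sets, is not stated in the labels. Of the embryo markers, 17 of 22 passed the filter on dim signals, a log2 value of at least 4 on at least 3 arrays, and those at or near the floor of the values on most or all arrays were mex-1, oma-1, par-2, egg-1 and chs-1. The cuticle gene col-19, which belongs to adults, did not pass on any array. Wild type 3 and mutant 3 stood apart from their groups. The median absolute distance of an array from the mean of its group's other arrays, on the log2 scale, was 0.203 for wild type 3 and 0.27 for mutant 3, against 0.13 to 0.178 for the other 4 arrays. Differences of the glycolytic genes are therefore also given without both of these arrays.

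All 9 measured genes read lower on average in the mutant, by modest amounts, and none passed the test. The fitted log2 differences, mutant minus wild type, ran from −0.13 to −0.50 over the 12 probe sets, all of which passed the filter on dim signals, and all 12 lay below 0, where 56.6% of all tested probe sets did. At an adjusted p under 0.05 in limma, 0 of the 12 were called, where 0.133% of the 12060 tested probe sets were called in either direction. At an unadjusted limma p under 0.05, 4 of the 12 were lower and 0 higher, against 7.4% of all tested probe sets lower. Taking the brightest probe set of each gene, the median log2 difference over the 9 genes was −0.30, and over all 9113 tested genes it was −0.01. Without wild type 3 and mutant 3 the median over the 9 genes was −0.10 and over all tested genes −0.03. Since the genes were chosen with earlier results of these arrays known, no test was made of the group as such.

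At 7 of the 12 probe sets the genotypes were separate, each with every mutant array under every wild-type array, where 10.7% of all tested probe sets were so ordered. These 7 were the brighter probe set of aldo-1, those of aldo-2, both tpi-1 probe sets, pgk-1, pyk-1 and the dimmer probe set of pfk-1.1. Mutant 3 was the lowest of the 6 arrays at all 12 probe sets, as it was at 34.4% of all tested probe sets. Wild type 3 was the highest of the 6 at 10 of the 12, as it was at 21.9% of all. The probe sets share arrays and RNA, so these counts are not independent observations.

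**Figure D1:**
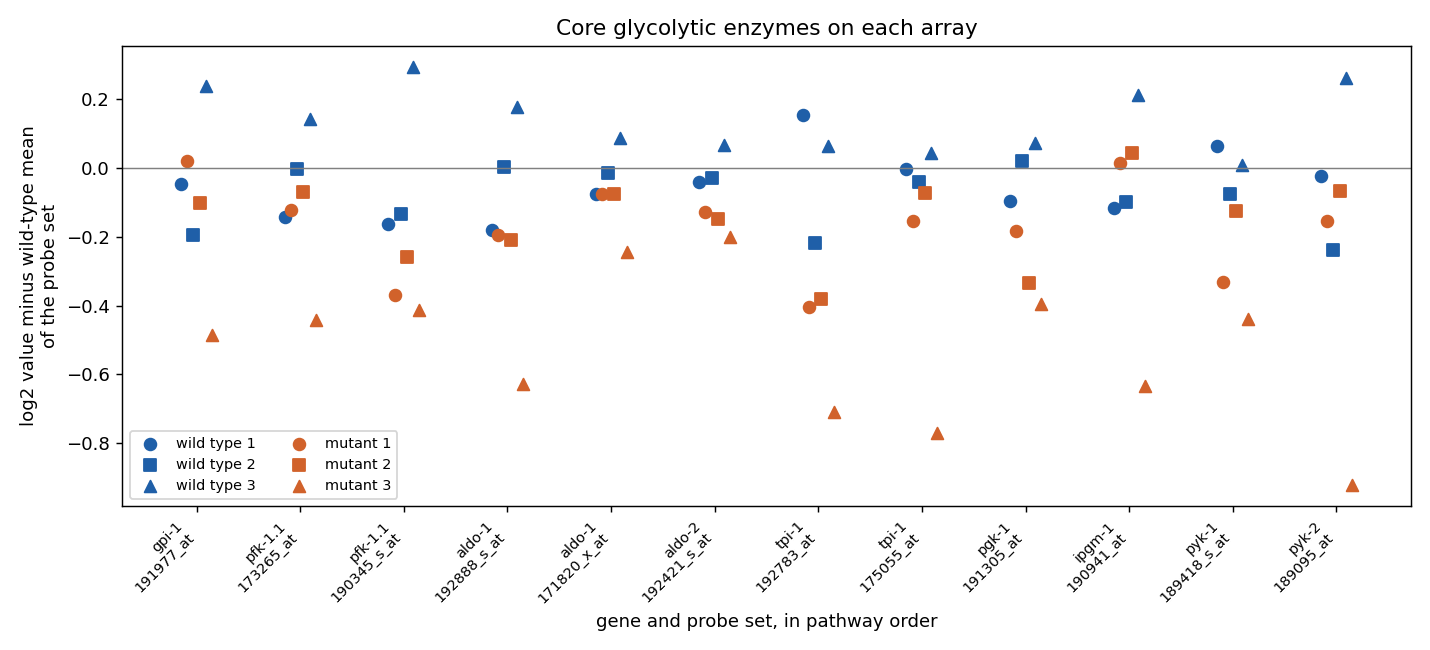
Log2 value of each array minus the wild-type mean of the probe set (vertical axis) for the 12 probe sets of core glycolytic enzymes in pathway order (horizontal axis), with wild type in blue, mutant in orange and 1 marker shape per replicate number. Mutant 3 (orange triangles) is the lowest array at all 12 probe sets, and wild type 3 (blue triangles) is the highest at 10.

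The first of these enzymes, encoded by gpi-1, is glucose phosphate isomerase, which turns phosphorylated glucose into phosphorylated fructose. At its probe set 191977_at (Entrez gene 173227) wild type read 11.48, 11.33 and 11.76 and the mutant 11.54, 11.42 and 11.04. The genotypes overlapped, with mutant 1 and mutant 2 between the lowest and highest wild-type arrays and mutant 3 alone under all of them. The log2 difference was −0.19 (SE 0.18), with a limma 95% interval from −0.66 to 0.28 and an adjusted p of 0.789. Without the arrays numbered 3 it turned to 0.08 (SE 0.083).

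Phosphofructokinase commits the sugar to breakdown by adding a further phosphate at the cost of ATP, and pfk-1.1 (Entrez gene 180583) was read by 2 probe sets. The brighter, 173265_at, read 11.79, 11.93 and 12.08 in wild type and 11.81, 11.87 and 11.49 in the mutant. The dimmer, 190345_s_at, read 10.36, 10.39 and 10.82 in wild type and 10.15, 10.27 and 10.11 in the mutant. They disagreed on overlap: at the brighter the genotypes overlapped, and at the dimmer each mutant array lay under every wild-type array, by at least 0.096. Log2 differences were −0.21 (SE 0.13, limma adjusted p 0.711) and −0.35 (SE 0.14, limma adjusted p 0.587), and without the arrays numbered 3 they were −0.02 and −0.17.

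Aldolase cleaves the doubly phosphorylated fructose into a pair of triose phosphates, and worms carry 2 genes for it. For aldo-1 (Entrez gene 176788) the brighter probe set, 192888_s_at, read 12.28, 12.47 and 12.64 in wild type and 12.27, 12.26 and 11.84 in the mutant. The mutant arrays lay under the wild-type arrays, but by only 0.015 at the closest, between wild type 1 and mutant 1. Its log2 difference was −0.34 (SE 0.16), with a limma 95% interval from −0.76 to 0.07 and an adjusted p of 0.628. The other probe set of aldo-1, 171820_x_at, differed by −0.13 (SE 0.077) and was deposited at the same value, 11.42, on wild type 1, mutant 1 and mutant 2. Such exact repeats occurred at 1 of the 12 probe sets, against 42% of all tested probe sets, and they narrow the spread that a fit sees.

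The second aldolase gene, aldo-2 (Entrez gene 175827), had the smallest standard error of the 12 probe sets. At 192421_s_at the wild-type arrays read 14.06, 14.08 and 14.17, a mean of 14.10 ± 0.059 (SD, n = 3), and the mutant arrays read 13.98, 13.96 and 13.90, a mean of 13.95 ± 0.038 (SD, n = 3). The genotypes did not overlap, although the difference was small, at 1.12-fold. On the log2 scale it was −0.16 (SE 0.053) with a limma 95% interval from −0.29 to −0.02, and the adjusted p was 0.472. Without the arrays numbered 3 it was −0.10 (limma 95% interval −0.17 to −0.03, adjusted p 0.126), so less of it rested on those arrays than for aldo-1, which went from −0.34 to −0.11.

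Triose phosphate isomerase interconverts the pair of triose phosphates that aldolase makes, so that both can go on to pyruvate. Its gene tpi-1 (Entrez gene 174844) had the largest difference among the members. At the brighter probe set, 192783_at, wild type read 12.45, 12.08 and 12.36 and the mutant 11.89, 11.92 and 11.59. Every mutant array was under the lowest wild-type array, by at least 0.164. The means were 12.30 ± 0.19 and 11.80 ± 0.18 (SD, n = 3), which is 1.41-fold lower in the mutant, a log2 difference of −0.50 (SE 0.14) with a limma 95% interval from −0.87 to −0.13 and an adjusted p of 0.383. Without the arrays numbered 3 the difference was −0.36 (SE 0.16, limma adjusted p 0.315).

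At the second tpi-1 probe set mutant 3 stood far under the other arrays. At 175055_at the wild-type arrays lay close together, at 11.64, 11.60 and 11.69, and the mutant arrays read 11.49, 11.57 and 10.87. Mutant 3 was 0.655 under the mean of the other mutant arrays, while mutant 2 was only 0.032 under the lowest wild-type array. The log2 difference of −0.33 (SE 0.20, limma adjusted p 0.70) became −0.09 without the arrays numbered 3, so the probe sets of this gene gave differences of −0.36 and −0.09 on the remaining 4 arrays.

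The late steps, which return ATP, begin with phosphoglycerate kinase. At 191305_at, the probe set of its gene pgk-1 (Entrez gene 171965), wild type read 12.80, 12.92 and 12.98 and the mutant 12.72, 12.57 and 12.51. The genotypes were separate on all arrays, and pgk-1 had the smallest adjusted p among the members, 0.347 in limma. Its means of 12.90 ± 0.087 and 12.60 ± 0.11 (SD, n = 3) differed by −0.30 (SE 0.082), with a limma 95% interval from −0.51 to −0.09. It kept a difference of −0.22 (SE 0.083) without the arrays numbered 3.

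Phosphoglycerate mutase moves the remaining phosphate within phosphoglycerate. The worm enzyme encoded by ipgm-1 (Entrez gene 172376) is of the cofactor-independent type, which is unrelated to the mammalian enzyme. At 190941_at wild type read 12.27, 12.29 and 12.60 and the mutant 12.40, 12.43 and 11.76. Mutant 1 and mutant 2 lay above wild type 1 and wild type 2, and only mutant 3 was under all wild-type arrays. The difference with all arrays was −0.19 (SE 0.22, limma adjusted p 0.808). Without the arrays numbered 3 it turned to 0.14 (limma 95% interval 0.06 to 0.22, adjusted p 0.105).

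Pyruvate kinase ends the pathway by passing a phosphate to ADP, and it too has 2 genes. At 189418_s_at of pyk-1 (Entrez gene 172744) wild type read 11.76, 11.62 and 11.71 and the mutant 11.37, 11.57 and 11.26. These did not overlap, with the closest approach of 0.05 between wild type 2 and mutant 2. The log2 difference was −0.30 (SE 0.098), with a limma 95% interval from −0.55 to −0.05 and an adjusted p of 0.462, and it was −0.22 without the arrays numbered 3.

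At 189095_at of pyk-2 (Entrez gene 177984) wild type read 10.62, 10.41 and 10.91 and the mutant 10.49, 10.58 and 9.72. The genotypes overlapped, and mutant 3 was 0.813 under the mean of the other mutants, the widest such gap among the 12 probe sets. The difference of −0.38 (SE 0.28, limma adjusted p 0.74) was larger than that of pyk-1 but became 0.02 without the arrays numbered 3. Whether pyk-1 and pyk-2 differ in their response was not tested. Setting pyk-2 against pyk-1 within an array, relative to the wild-type mean, gave −0.09, −0.16 and 0.25 in wild type and 0.18, 0.06 and −0.48 in the mutant, so the ratio of these kinases had no common direction between genotypes. For aldo-1 against aldo-2 the same quantity was −0.14, 0.03 and 0.11 in wild type and −0.07, −0.06 and −0.43 in the mutant, again overlapping.

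**Figure D2:**
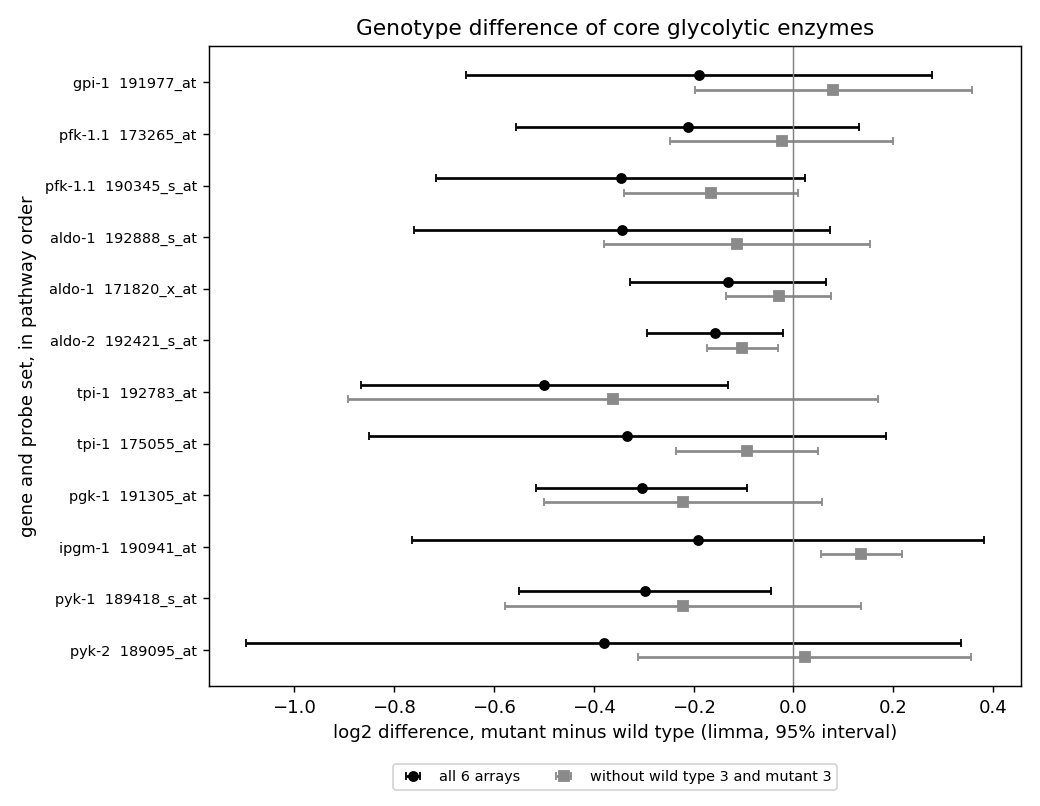
Log2 difference between mutant and wild type (horizontal axis) for each probe set in pathway order (vertical axis), with limma 95% intervals that are not adjusted for the number of probe sets, from all 6 arrays (black circles) and without wild type 3 and mutant 3 (grey squares). With all arrays every difference lies below 0, and without those arrays gpi-1, ipgm-1 and pyk-2 lie above it.

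Without wild type 3 and mutant 3 the members parted. Of the 12 probe sets, 9 stayed below 0, where 55.6% of all tested probe sets lay below 0 in that fit, and gpi-1, ipgm-1 and pyk-2 lay above it. The 7 probe sets with separate genotypes on all 6 arrays must stay separate on those 4, so their staying so carries no information. No further member probe set became separate with the mutant lower. Over all tested probe sets that share was 10.7% on all 6 arrays and 33.6% on those 4. None of the 12 was called in that fit, where 1.98% of all tested probe sets were, and 2 had an unadjusted limma p under 0.05, aldo-2 below 0 and ipgm-1 above it, a smaller share than the 25.1% of all tested probe sets. The differences that stayed largest were those of tpi-1, pyk-1 and pgk-1.

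The glycolytic enzymes outside the group that had a tested probe set of their own gave a like picture. Hexokinase, which adds the first phosphate to glucose and holds it in the cell, has 3 genes on the array. The gene hxk-3 read 8.87, 8.75 and 9.02 in wild type and 8.52, 8.49 and 8.18 in the mutant, separate on all arrays, with a log2 difference of −0.48 (SE 0.13, limma adjusted p 0.338) and −0.30 without the arrays numbered 3. The gene hxk-2 read 8.17, 7.93 and 8.36 against 7.90, 7.90 and 7.12, a log2 difference of −0.52 (SE 0.26, limma adjusted p 0.645) that became −0.16. The brighter probe set of hxk-1 differed by −0.22 (SE 0.12, limma adjusted p 0.682), and pfk-1.2, a second phosphofructokinase gene, stood at the floor of 2.04 on all arrays. Of the 8 further genes, 5 had a tested probe set of their own. All 5 were fitted below 0, where 53.8% of all tested genes were. Of the 5, 0 were called, where 0.143% of all tested genes were. The probe sets that gpd-1 and gpd-4 share were tested too but are not in this count, and are given below.

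Glyceraldehyde phosphate dehydrogenase, the step between tpi-1 and pgk-1, has 4 genes in the worm, of which gpd-2 and gpd-3 are known to be expressed mainly after hatching and gpd-1 and gpd-4 mainly in embryos. Near-identical copies can share labelled RNA on such arrays, so values for these genes may mix them. At gpd-2 wild type read 14.35, 14.35 and 14.54 and the mutant 14.36, 14.35 and 14.11, a log2 difference of −0.14 (SE 0.099, limma adjusted p 0.73). At the brighter probe set of gpd-3 the difference was −0.20 (SE 0.12, limma adjusted p 0.697). At gpd-2 mutant 3 was 0.24 under the mean of the other mutants and wild type 3 was 0.188 above that of the other wild types. Without the arrays numbered 3 the differences of gpd-2 and gpd-3 were 0.0013 and −0.07.

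The embryonic forms stood the other way on mutant 3. Probe set 193860_s_at, annotated to both gpd-1 and gpd-4, read 10.10, 9.80 and 9.30 in wild type and 8.53, 8.65 and 11.54 in the mutant. Mutant 3 was 2.95 above the mean of the other mutants and above every wild-type array, while mutant 1 and mutant 2 were under every wild-type array. The log2 difference was −0.17 with all arrays (SE 0.90, limma adjusted p 0.976) and −1.36 without the arrays numbered 3 (SE 0.14, limma adjusted p 0.0628). The second shared probe set, 171822_x_at, read 9.10, 9.11 and 9.08 in wild type and 8.95, 8.94 and 9.96 in the mutant, again with mutant 3 above every wild-type array and the other mutants under every one. Its log2 difference was 0.19 with all arrays (SE 0.31, limma adjusted p 0.866) and −0.16 without the arrays numbered 3.

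**Figure D3:**
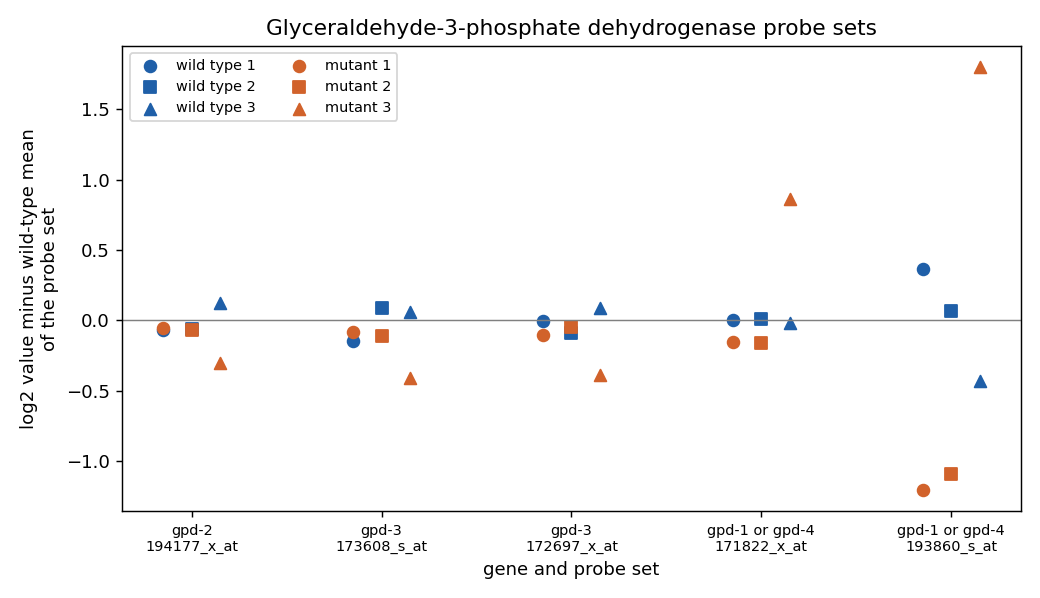
Log2 value of each array minus the wild-type mean of the probe set (vertical axis) for 5 probe sets of glyceraldehyde phosphate dehydrogenase (horizontal axis), with wild type in blue, mutant in orange and 1 marker shape per replicate number. Mutant 3 (orange triangles) is the lowest array at the gpd-2 and gpd-3 probe sets and the highest at those shared by gpd-1 and gpd-4.

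Gluconeogenesis runs the shared steps backwards and bypasses the irreversible ones with enzymes of its own. Of its 5 listed genes 4 were tested, all 4 were fitted below 0, 0 were called, and the median was −0.42. For pyc-1, pyruvate carboxylase, the log2 difference was −0.89 (SE 0.17, limma adjusted p 0.187). For fbp-1, fructose bisphosphatase, which opposes pfk-1.1, it was −0.40 (SE 0.071, limma adjusted p 0.175). For pck-1 and pck-2, which encode phosphoenolpyruvate carboxykinases, the differences were −0.44 (SE 0.29, limma adjusted p 0.723) and −0.36 (SE 0.099, limma adjusted p 0.366), and pck-3 stood at the floor. The genotypes were separate for 3 of the 4, against 9.87% of all tested genes, and without the arrays numbered 3 pyc-1, fbp-1 and pck-2 read −0.78, −0.32 and −0.23 while pck-1 read 0.0099.

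Pyruvate, the product of the pathway, enters mitochondria and is oxidised by the pyruvate dehydrogenase complex. Of 9 genes for its fates, 8 were fitted below 0 and 0 were called, with a median of −0.23 that was −0.30 without the arrays numbered 3. The subunit genes dld-1 and pdhb-1 and the complex's kinase gene pdhk-2 differed by −0.39 (SE 0.055), −0.60 (SE 0.10) and −0.37 (SE 0.10), and their adjusted p in limma were 0.108, 0.152 and 0.346. At ldh-1, lactate dehydrogenase, the difference was −0.14 (SE 0.12, limma adjusted p 0.778). On mutant 3 these 9 genes lay, on average, 0.229 under wild type, which was close to mutant 1 at 0.228 and mutant 2 at 0.247. That average joins genes that went opposite ways: mutant 3 was below both other mutants at 5 of the 9 and above both at 4. The core glycolytic genes lay 0.54 under wild type on mutant 3, against 0.164 and 0.154 on mutant 1 and mutant 2.

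Neighbouring routes held no called gene with all arrays. Glycogen and trehalose genes had 11 of 13 fitted below 0 with a median of −0.21. Those with the smallest p were tps-2, trehalose phosphate synthase, at −0.94 (SE 0.096, limma adjusted p 0.0676), tre-1, a trehalase, at −0.59 (limma adjusted p 0.438) and pygl-1, glycogen phosphorylase, at −0.30 (limma adjusted p 0.453). Without the arrays numbered 3, tps-2 was called lower, at −0.86 (limma adjusted p 0.042). The 5 pentose phosphate genes were all fitted below 0 with a median of −0.16, and tald-1, tkt-1 and T25B9.9, which encode transaldolase, transketolase and phosphogluconate dehydrogenase, differed by −0.15, −0.16 and −0.22. Tricarboxylic acid cycle genes had 16 of 19 below 0 with a median of −0.18, and those with the smallest p were aco-2, aconitase, at −0.42 (limma adjusted p 0.278), suca-1, a succinyl-CoA synthetase subunit, at −0.30 (0.435) and sdhb-1, a succinate dehydrogenase subunit, at −0.17 (0.558). Over all tested genes 53.8% were fitted below 0.

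**Figure D4:**
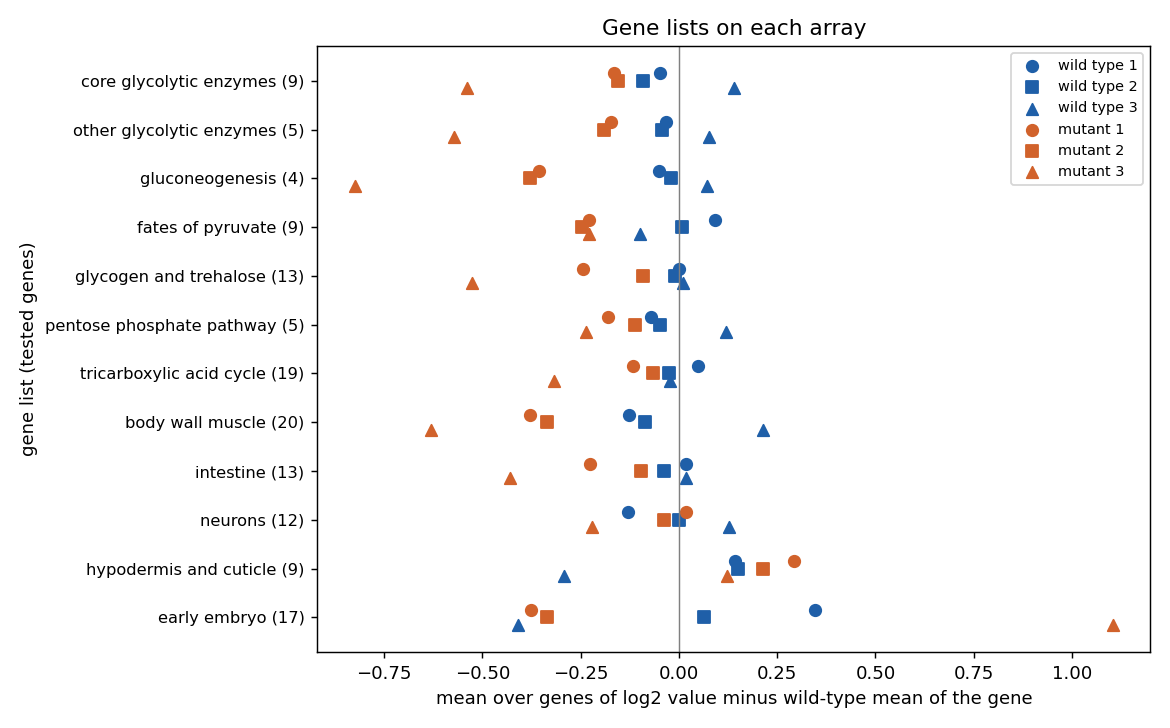
Mean over the tested genes of a list of the log2 value minus the gene's wild-type mean (horizontal axis), for each array and gene list (vertical axis, number of tested genes in brackets), with wild type in blue, mutant in orange and 1 marker shape per replicate number. The core glycolytic list spreads from −0.54 on mutant 3 to 0.14 on wild type 3. Body wall muscle does so from −0.63 to 0.21, other glycolytic enzymes from −0.57 to 0.08 and gluconeogenesis from −0.82 to 0.07. The early embryo list stands at 1.103 on mutant 3.

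Marker lists of tissues and stages differed in how they ran beside these genes across the arrays. Of 20 body wall muscle markers, all tested, 19 were fitted below 0 and 1, tnt-2, was called lower, at −1.01 (limma adjusted p 0.0352), as it was without the arrays numbered 3 (0.042). The median of these markers was −0.50 with all arrays and −0.25 without those numbered 3. The log2 of their summed level was 18.27 to 18.55 in wild type and 17.87 to 18.04 in the mutant, so the groups did not overlap, and no muscle marker stood at the floor. Relative to wild type the muscle list averaged 0.21 on wild type 3 and −0.63 on mutant 3, against 0.14 and −0.54 for the core glycolytic genes. On mutant 1 and mutant 2 it lay further down than those genes, at −0.38 and −0.34 against −0.16 and −0.15. Gluconeogenesis genes averaged 0.07 on wild type 3 and −0.82 on mutant 3, so that order was not particular to muscle. Of the 17 tested early embryo markers 12 were fitted above 0, with a median of 0.14 that was −0.47 without the arrays numbered 3, and the log2 of their summed level was 13.34 to 13.90 in wild type and 13.57 to 14.65 in the mutant. With all arrays no embryo marker was called, and without those numbered 3 par-3 was called higher, at 0.39 (limma adjusted p 0.0455). The other par-3 probe set, 175616_at, was not called in that fit, at 0.25 (limma adjusted p 0.355). Of all 9113 tested genes 204 were called in that fit, and 13 of the 17 embryo markers lay below 0. That list averaged 1.103 on mutant 3 and −0.41 on wild type 3, with the opposite sign to the glycolytic genes on both. Its members did not all go one way: mutant 3 was above both other mutants at 13 of the 17 and below both at 4. On mutant 1 and mutant 2 the embryo list averaged −0.38 and −0.34, with the same sign as the glycolytic genes. The part of tissue or stage makeup in the glycolytic differences was not tested.

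Intestine markers had 12 of 13 below 0 with a median of −0.18, and averaged −0.43 on mutant 3 relative to wild type. Neuron markers had 9 of 12 below 0 with a median of −0.09, and averaged −0.22 on mutant 3. Hypodermis and cuticle markers had 8 of 9 above 0 with a median of 0.26. They averaged 0.29 on mutant 1, 0.21 on mutant 2 and 0.12 on mutant 3. On wild type 1, wild type 2 and wild type 3 they averaged 0.14, 0.15 and −0.29. Without the arrays numbered 3 the medians of these lists were −0.14, 0.03 and 0.07, and 5 of 12 neuron markers lay below 0. No gene of these lists was called with all arrays or without those numbered 3.

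The genes outside all lists whose profile over the 6 arrays lay nearest to the mean of the core glycolytic genes were vha-13, pde-1, vha-12, mdt-15 and T02H6.1. Likeness was measured as the root mean square difference of log2 values centred on each gene's mean over the 6 arrays, and ran from 0.0296 to 0.0375 over these 5 of the 8978 genes ranked. The genes vha-13 and vha-12 encode subunits of the vacuolar ATPase, a proton pump, pde-1 a cyclic nucleotide phosphodiesterase, and mdt-15 a Mediator subunit that regulates fat metabolism genes. Their log2 differences were −0.23, −0.32, −0.22 and −0.26, with −0.29 for T02H6.1, and none was called in limma, with adjusted p from 0.609 to 0.706. All 5 were lowest on mutant 3 and highest on wild type 3, as the mean profile of the core glycolytic genes was. This order and the size of their differences follow from how they were chosen.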

How the data were processed

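The values used are log2 expression levels as deposited by the authors, for 22625 probe sets on each of 6 arrays. Per the submitters' processing notes, GCRMA (background correction by probe sequence) and limma were used, with no version or setting named. Per the labels' protocols, RNA was labelled with biotin by in vitro transcription. All arrays share a floor of 2.04, so dim signals have no order, and scanner intensities were not analysed here. Precision is limited by the number of arrays.

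Groups and replicate numbers come from the sample titles. The 77 control probe sets were left out. Of the rest, 20766 carried 1 gene, 887 several and 895 none in the platform annotation, and 20701 of the first kind matched RefSeq (WBcel235) by Entrez gene number, with 0 symbols changed. Probe sets with a log2 value of at least 4 on at least 3 arrays were tested, 12060 in all, and a gene was represented by its brightest such probe set (9113 genes). The test was lmFit and eBayes of limma 3.58.1 (R 4.3.3) with genotype as its only term. P-values were adjusted by Benjamini-Hochberg over every tested probe set. The fit was tested on simulated data with independent noise. Those data held no outlying arrays and no repeated values, so that test does not cover these traits of the arrays. An exact permutation test of 3 arrays against 3 cannot give a p under 0.1. The members and the 11 other gene lists were chosen with earlier results of these data known. All members and all genes of the hexokinase, dehydrogenase and gluconeogenesis lists are named, up to 3 genes with the smallest p of other pathway lists, ldh-1 for its place in the pathway, the markers called in muscle and embryo, and the 5 nearest profiles. The alternatives were 2 other filters, 2 scalings, a floor, a variance model, array weights, a replicate block, each array and both arrays numbered 3 left out, the mean of a gene's probe sets and an unadjusted threshold. A search of promoters and the printing of sequences were not done, because no sequences were used here.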

Additional observations from a re-analysis of the deposited data

How the results depend on the processing

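No core glycolytic probe set was called in limma under any of the alternatives that refit the model, and at an unadjusted p under 0.05 in limma 4 were. Over 135 alternative values of single genes, 129 kept their direction and the lowest limma adjusted p was 0.0888. The 6 that turned were gpi-1 with array weights (0.087) and without both arrays numbered 3 (0.0796), ipgm-1 with array weights (0.095), without mutant 3 (0.029) and without both (0.14), and pyk-2 without both (0.022). The cause was not tested. The median of −0.30 over the 9 genes became −0.10 with array weights, which gave mutant 3 a weight of 0.119 and wild type 3 one of 0.266, and −0.10 without both arrays numbered 3. With 1 array left out it ran from −0.31 to −0.14, the latter without mutant 3. It was −0.27 after quantile normalization, −0.24 after median centring and −0.28 with the mean of a gene's probe sets, and those scalings moved the median of all genes from −0.01 to 0.023 and 0.051. Deviations of same-numbered arrays from their group means correlated at −0.408, −0.423 and −0.519 over 12060 probe sets. With 3 arrays per group these values depend on each other, so they cannot show whether same-numbered arrays were prepared together. With the replicate block the median stayed at −0.30 and 0 member probe sets were called. Over all probe sets the 16 calls became 0 with the replicate block, 5 with no filter, 25 after quantile normalization, 804 with array weights, 239 without both arrays numbered 3, and 0 to 4 with 1 array left out.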
